A study of Rattus norvegicus with 172 samples.

Results

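The genes described here encode inducible neuropeptides: the opioid precursors Penk and Pdyn, the tachykinin precursors Tac1 and Tac3, and Calca, Vgf, Scg2, Cck, Sst and Adcyap1. They were picked as a list of gene names, with earlier results of these data known, and each name was looked up in the annotation of the array. All 10 genes were on the array, and 9 of them passed a filter on low signal and were tested among 10758 genes in all. Tac1 did not pass, because its probe set exceeded its array's median in just 1 of 164 rats. Each gene is represented by its brightest probe set, a group of short array oligonucleotides that reads 1 or more transcripts of the gene.

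The RNA came from granule cells, which are the main neurons of the dentate gyrus and were cut by laser from stained hippocampal sections 10 µm thick and pooled from several caps of each rat. In all, 7 laboratories and 4 models of epilepsy contributed 164 male Sprague-Dawley rats, and 172 arrays were run. In both pilocarpine laboratories all rats first received methylscopolamine, which limits effects outside the brain. Treated rats then received 300 to 350 mg/kg of pilocarpine, a cholinergic agonist that starts status epilepticus (SE, seizure activity that does not stop), and controls received saline. Pentobarbital ended SE after 90 min. Kainate, a glutamate receptor agonist, was given hourly at 5 mg/kg until SE began, and kainate controls received saline. In kainate laboratory A, SE was left to stop on its own after 6 to 8 h, while laboratory B started with 7.5 mg/kg and stopped SE with pentobarbital after 90 min. The third model, self-sustaining status epilepticus (SSSE), came from 1 laboratory, and how it was induced is not given in the sources used here. Kindling, where stimulation is repeated until seizures of rising stage appear, was run in laboratories A and B, with no further detail in the sources used here. Times in the 3 SE models were day 1, day 3 and day 10, and those in kindling were stages 2, 4 and 5. Each laboratory had its own controls. A group held 6 rats, except for 5 controls, 5 rats at day 3 and 4 rats at day 10 of SSSE, and an average over the laboratories A and B compares 12 treated rats with 12 controls.

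Neuropeptides are cut from larger precursor proteins, stored in dense-core vesicles and released mainly during strong or repeated firing, after which they act on G protein-coupled receptors. Granule cells store opioid peptides in their mossy fibres: enkephalins, from Penk, act mostly on mu and delta opioid receptors, and dynorphins, from Pdyn, act on kappa receptors that limit transmitter release. Many of these precursor genes are regulated by neuronal activity, some through the cAMP response element, to which the factor CREB binds.

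Promoters are shown because Vgf, Scg2 and Sst have a full cAMP response element, TGACGTCA, near the start of the gene, and of these genes Vgf was called at day 1 of pilocarpine and kainate while Scg2 and Sst were not. The part of this element in the changes was not tested. RefSeq promoter sequences of build GRCr8, which run from 250 bases before to 50 bases after a gene's start, were at hand for 7 of the 10 genes. Penk, Tac3 and Cck had no entry. Of all 33469 such promoters, 1.83% held TGACGTCA, which reads the same on both strands. Its core TGACG, on either strand and counted inside the full element too, was in 21.2%, and the AP-1 motif TGACTCA, on either strand, was in 4.63%. The full element began 90 bases before the start in Vgf, 123 bases before it in Scg2 and at base 3 after it in Sst. These positions count from the start as annotated in these RefSeq entries. Calca and Tac1 held the core alone, at 112 and 206 bases before the start, and Pdyn and Adcyap1 held none of these motifs in this window. None of the 7 held TGACTCA. The lines below give the last 150 bases before the start on the gene's strand, or the 30 bases around the element for Sst, with the matched motif in capitals.
Vgf, chr12:25277021-25277170, minus strand: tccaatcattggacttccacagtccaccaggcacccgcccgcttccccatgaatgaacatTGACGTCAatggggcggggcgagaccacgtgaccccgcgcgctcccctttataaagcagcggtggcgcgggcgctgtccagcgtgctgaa
Scg2, chr9:88256867-88257016, minus strand: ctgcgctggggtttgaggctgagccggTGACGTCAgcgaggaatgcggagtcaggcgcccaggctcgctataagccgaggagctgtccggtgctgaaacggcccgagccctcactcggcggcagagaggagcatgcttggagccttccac
Sst, chr11:90461537-90461566, plus strand: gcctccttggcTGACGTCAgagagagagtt
Calca, chr1:178317530-178317679, minus strand: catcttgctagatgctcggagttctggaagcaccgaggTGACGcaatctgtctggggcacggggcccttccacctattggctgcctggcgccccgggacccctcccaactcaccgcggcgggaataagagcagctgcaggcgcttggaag
Pdyn, chr3:137366504-137366653, minus strand: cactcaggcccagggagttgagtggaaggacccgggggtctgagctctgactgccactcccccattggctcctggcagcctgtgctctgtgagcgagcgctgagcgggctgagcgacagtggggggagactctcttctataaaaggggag

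The 2 opioid precursors moved in opposite directions at kainate day 1. Penk rose after pilocarpine and kainate, Pdyn fell after kainate and SSSE, and Tac3 was the single member that passed the test in fully kindled rats. Changes are differences of log2(signal + 16) from own-laboratory controls, as the mean of both laboratories of a model, given with the standard error of a limma fit, and a change was called at a Benjamini-Hochberg adjusted p under 0.05 over all genes tested. Folds are on the scale of signal + 16, which understates the change of dim genes. At pilocarpine day 1, 3 members rose (Penk, Calca and Vgf) and none fell, where 32.1% of all genes were called, 15.8% higher and 16.3% lower. At day 3, 1 member rose (Penk), against 11.7% of all genes called, 7.74% higher and 3.92% lower. At day 10 no member was called, against 8.93% of all genes, 3.82% higher and 5.11% lower. At kainate day 1, 4 members rose (Penk, Tac3, Calca and Vgf) and 2 fell (Pdyn and Adcyap1), where 41.6% of all genes were called, 22.2% higher and 19.4% lower. No member was called at kainate day 3, against 7.97% of all genes, 4.67% higher and 3.3% lower. At kainate day 10 Tac3 rose and Pdyn fell, against 6.28% of all genes, 2.57% higher and 3.71% lower.

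In SSSE, Pdyn fell at day 1, where 12.5% of all genes were called, 5.51% higher and 7.02% lower. It fell at day 3 too, where 3.14% were called, 1.66% higher and 1.48% lower. No member was called at SSSE day 10, against 0.344% of all genes, 0.177% higher and 0.167% lower. In kindling no member was called at stage 2 or stage 4, where 0% of all genes were called, and 1 member, Tac3, rose at stage 5, against 7.1% of all genes called, 3.23% higher and 3.87% lower. By the same limma fit, the unadjusted p lay under 0.05 for 1 of 9 members at pilocarpine day 10, 2 at kainate day 3, 0 at SSSE day 10, 0 at stage 2, 1 at stage 4 and 6 at stage 5. The median change of the 9 members was 0.41 at pilocarpine day 1 and 0.22 at kainate day 1, against 0.00 and 0.02 over all genes. The 3 times of a model share their controls, so they are not independent of each other.

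**Figure D1:**
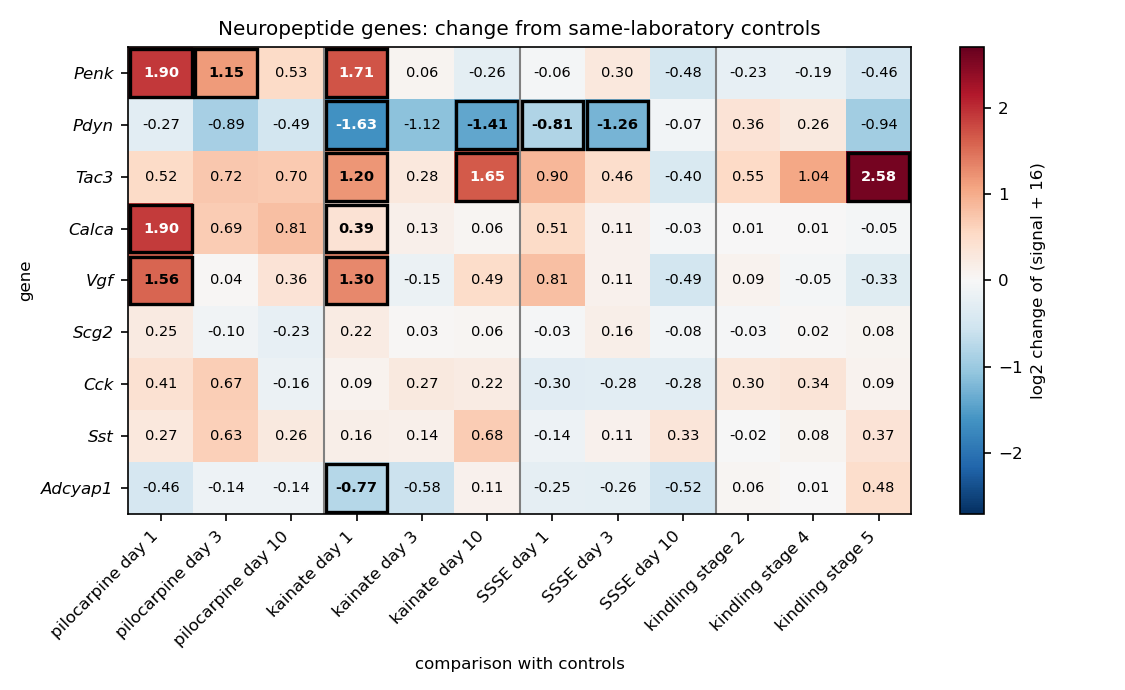
Log2 change of signal + 16 from own-laboratory controls for the 9 tested genes (rows) in 12 comparisons (columns), averaged over the laboratories of a model. Boxed values in bold passed the threshold of 0.05 on the adjusted p; Penk is 1.90 at pilocarpine day 1, Pdyn is -1.63 at kainate day 1 and Tac3 is 2.58 at kindling stage 5.

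Signal is the brightness of a probe set, scaled by array, and the array medians ran from 27.99 to 54.2. Of 13 granule cell markers on the array, 11 lay above their array's median in 82 or more of the 164 rats, and so did 9 of 15 interneuron markers, Gad1 and Reln in all 164 rats (some of these genes are made in granule cells too). So did 8 of 10 astrocyte, 6 of 7 oligodendrocyte, 4 of 7 endothelial, 4 of 10 pyramidal and mossy cell and 3 of 12 microglial and macrophage markers. At kainate day 1 all 11 tested granule cell markers fell, and at pilocarpine day 1, 8 of 11 fell, while 5 and 6 of 10 microglial and macrophage markers rose and 5 of 9 astrocyte markers fell at each of these times. At pilocarpine day 3, when Penk was still raised, 8 of 10 microglial and 5 of 9 astrocyte markers rose and 3 of 11 granule cell markers fell. At kainate day 10 and at SSSE day 1, when Pdyn was lower, 3 of 11 granule cell markers fell. The part of these markers in the results was not tested. Fewer cells of a type and less RNA per cell cannot be told apart in these pooled cells. In 6 rats the array correlated less well with the rest of its group (by over 0.02 of Pearson's correlation), and these rats are called doubted where a result touches them. The labels of 2 rats contradict each other (rat 3 of SSSE day 1 and rat 4 of stage 2 in kindling laboratory A).

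Penk, the precursor of the enkephalins, rose in every rat at day 1 of pilocarpine and kainate. In pilocarpine laboratory A the lowest, median and highest Penk signals were 265, 442 and 511 in controls and 645, 1493 and 2533 at day 1. In laboratory B they were 159, 413 and 575 in controls and 802, 1565 and 2542 at day 1. Treated and control rats did not overlap in either laboratory, and the change was 1.90 ± 0.32 (adjusted p = 6.56e-06), or 3.74-fold. In the kainate model Penk ran from 327 to 588 in laboratory A controls against 1106 to 2125 at day 1, and from 500 to 866 against 1000 to 3511 in laboratory B. Again no treated rat reached down to its controls, and the change was 1.71 ± 0.19 (adjusted p = 7.68e-10), or 3.26-fold.

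At later times the Penk signals of single rats spread widely. At pilocarpine day 3 it was still raised, by 1.15 ± 0.32 (adjusted p = 0.0111), and above all controls of its laboratory in 9 of 12 rats. At pilocarpine day 10 the 6 rats of laboratory B gave Penk signals of 1962, 2476, 1233, 695, 234 and 292. Of these, 4 lay above every control and 2 within the control range, and the rat at 2476 was one whose array correlated less well with its group. In laboratory A the day 10 signals ran from 147 to 626, around a median of 428, and spanned the control range. The mean over both laboratories, 0.53 ± 0.32, did not pass the test (adjusted p = 0.313), nor did the difference of 1.36 ± 0.63 between them (adjusted p = 0.359). In the kainate model the mean of Penk was close to the controls by day 3, with a change of 0.06 ± 0.19, and at day 10 it was -0.26 ± 0.19 (adjusted p = 0.486).

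In SSSE no change of Penk was called at any time. The 5 controls gave Penk signals of 530, 381, 400, 285 and 303, and at day 1 the lowest, median and highest were 90.0, 337 and 1845. At day 3 the signals were 235, 476, 2354, 195 and 373, and at day 10 they were 223, 162, 360 and 352. A single rat stood far above the controls at day 1 and another at day 3, the latter (rat 4) being one whose array correlated less well with its group, and the other rats lay within or below the control range. The day 1 change was -0.06 ± 0.58 (adjusted p = 0.96), and the 3 SE models differed at day 1 in their change of Penk (F-test, adjusted p = 0.0140, where 5.72% of all genes were called). This F-test came from 1 fit of all 28 groups with 1 variance per gene, so it does not carry the wider spread of Penk in SSSE. Without the doubted rat the day 3 change of Penk was -0.28, against 0.30 with it, and neither was called. In fully kindled rats Penk was lower than all controls of its laboratory in 8 of 12 rats, but the change of -0.46 ± 0.17 did not pass the test (adjusted p = 0.0882).

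Pdyn, the precursor of the dynorphins, fell after kainate and in SSSE. In kainate laboratory A the lowest, median and highest Pdyn signals were 507, 1045 and 2001 in controls and 131, 224 and 420 at day 1, with no overlap. In laboratory B they were 1541, 2076 and 3310 in controls and 228, 1371 and 3733 at day 1, where 3 rats lay below all controls and 1 above them. The change at kainate day 1 was -1.63 ± 0.37 (adjusted p = 0.000367), or 3.09-fold lower. Kainate day 3 gave -1.12 ± 0.37, which missed the threshold (adjusted p = 0.0513) and passed it without the doubted rats (adjusted p = 0.0433). By day 10 Pdyn was 70.5, 390 and 633 in laboratory A and 325, 1028 and 2149 in laboratory B (lowest, median and highest), and 10 of 12 rats lay below their controls. That change was -1.41 ± 0.37 (adjusted p = 0.0129), or -1.26 without the doubted rats (adjusted p = 0.0353). The 3 times were not shown to differ (F-test, adjusted p = 0.516).

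The SSSE controls gave Pdyn signals of 1824, 1320, 1195, 1032 and 1526. At day 1 the lowest, median and highest were 493, 786 and 1199, and 5 of 6 rats lay below every control. At day 3 the signals were 881, 323, 440, 489 and 850, and all 5 rats lay below the controls. By day 10 they were 1206, 1588, 1331 and 1065, inside the control range. The changes were -0.81 ± 0.24 at day 1 (adjusted p = 0.0353), -1.26 ± 0.25 at day 3 (adjusted p = 0.00946) and -0.07 ± 0.27 at day 10 (adjusted p = 0.962), and the 3 times differed (F-test, adjusted p = 0.0442, where 3.19% of all genes were called). The call at SSSE day 1 was lost when any 1 of control rats 1, 2, 3 or 5 or day 1 rats 1, 2, 3 or 4 was left out, with adjusted p of 0.0526 to 0.0882, while the change stayed between -0.85 and -0.69. Day 1 rat 3 is one of the rats with contradicting labels. Both SSSE calls were lost when all 28 groups were fitted together (adjusted p = 0.381 and 0.276). Without the doubted rat the day 3 change was -1.18 (adjusted p = 0.0278).

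After pilocarpine, Pdyn values overlapped widely with the controls, and the changes of -0.27 ± 0.38, -0.89 ± 0.38 and -0.49 ± 0.38 at days 1, 3 and 10 did not pass (adjusted p = 0.624, 0.121 and 0.456). The day 3 change passed with array weights (adjusted p = 0.0299) and with all 28 groups fitted together (adjusted p = 0.0498). In kindling the 3 stages differed in Pdyn (F-test, adjusted p = 0.0270, where 0.995% of all genes were called). Its changes were 0.36 ± 0.31 at stage 2, 0.26 ± 0.31 at stage 4 and -0.94 ± 0.31 at stage 5 (adjusted p = 0.995, 0.986 and 0.0555), none of them called. At stage 5 the lowest, median and highest signals were 116, 493 and 1057 in laboratory A, against 517, 942 and 1387 in controls, and 87.4, 823 and 2054 in laboratory B, against 747, 1277 and 1822. The groups overlapped, and 6 of 12 rats lay below their controls. With array weights the stage 5 change was -0.99 and passed the test (adjusted p = 0.0238). A dimmer probe set for Pdyn lay above its array's median in 0 rats, and the calls did not appear on it (-0.20 at kainate day 1, adjusted p = 0.165).

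**Figure D2:**
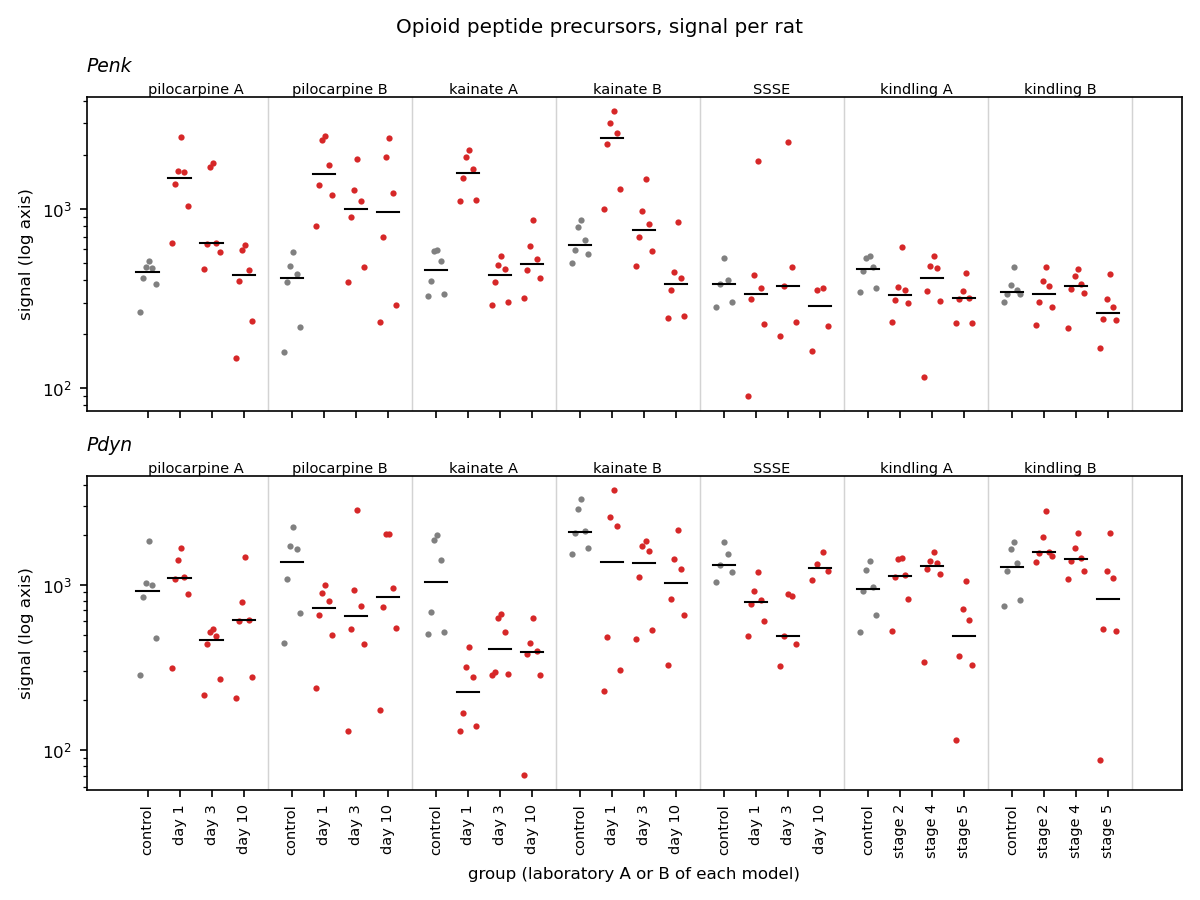
Signal of Penk (upper panel) and Pdyn (lower panel) in each rat on a log axis, by laboratory and time. Grey points are controls, red points treated rats and bars group medians. The Penk signals at day 1 of pilocarpine and kainate all lie above their own controls, and the Pdyn signals at kainate A day 1 and SSSE day 3 all lie below theirs.

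Tac3, the precursor of the tachykinin neurokinin B, rose after kainate and at kindling stage 5, with a wide spread among the treated rats. In kindling laboratory A the lowest, median and highest Tac3 signals were 22.6, 42.2 and 58.8 in controls. At stage 5 its rats gave 33.8, 502, 884, 672, 773 and 1075. The controls of laboratory B gave 26.8, 41.5 and 52.3 as lowest, median and highest, and its stage 5 rats gave 785, 209, 21.5, 571, 721 and 36.5. So 9 of 12 fully kindled rats lay above every control of their laboratory, most of them by a wide margin, and the other 3 were at or near the control level. The change was 2.58 ± 0.51 (adjusted p = 0.00168), or 5.99-fold.

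Single kindled rats of laboratory A had high Tac3 before stage 5. At stage 2 the rats of laboratory A gave 36.3, 417, 59.0, 634, 49.4 and 45.7, and at stage 4 they gave 1091, 15.7, 483, 612, 236 and 49.0. So 2 rats at stage 2 and 4 at stage 4 stood far above the controls, and the others lay close to the controls or below them. The stage 2 rat at 634 is the one with contradicting labels. In laboratory B the signals stayed between 20.1 and 78.6 at both stages. Neither stage passed the test, with 0.55 ± 0.51 (adjusted p = 0.995, and 0.31 without that rat) and 1.04 ± 0.51 (adjusted p = 0.986), and the difference between the 3 stages had an adjusted p of 0.0575 (F-test).

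In the kainate model Tac3 was raised at day 1 and again at day 10. In laboratory A its lowest, median and highest signals were 28.01, 42.4 and 61.4 in controls and 69.2, 175 and 249 at day 1, with no overlap. In laboratory B they were 11.9, 15.3 and 43.4 in controls and 13.2, 58.7 and 99.0 at day 1, with 4 of 6 rats above the controls. The change was 1.20 ± 0.38 (adjusted p = 0.00966), or 0.74 with 64 added to the signal in place of 16. At day 10 the rats of laboratory A gave 88.4, 238, 887, 397, 24.3 and 927, and those of laboratory B 34.2, 669, 20.7, 86.6, 24.4 and 23.4. Here 5 rats of laboratory A and 2 of laboratory B lay above their controls, and the change was 1.65 ± 0.38 (adjusted p = 0.00388). At day 3 between them it was 0.28 ± 0.38 (adjusted p = 0.778), and the 3 times differed (F-test, adjusted p = 0.0106, where 35.2% of all genes were called).

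No change of Tac3 passed after pilocarpine or in SSSE. The pilocarpine changes were 0.52 ± 0.35, 0.72 ± 0.35 and 0.70 ± 0.35 at days 1, 3 and 10 (adjusted p = 0.265, 0.192 and 0.216). Single rats stood high, at 422 at day 3 and 320 at day 10 of laboratory B, against 71.1 for the highest control there. In SSSE the controls gave 23.3, 40.2, 32.5, 22.5 and 47.5, and at day 1 the lowest, median and highest were 21.9, 66.0 and 334, for a change of 0.90 ± 0.50 (adjusted p = 0.234). Tac1, the precursor of substance P and neurokinin A, gave signals from 0.65 to 38.6 over all 164 rats, low on every array. Fitted without the filter, its changes lay between -0.31 and 0.31, and none was called in the 12 comparisons.

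Calca encodes both calcitonin and, in neurons, the calcitonin gene-related peptide (CGRP), through alternative splicing. Its brightest probe set lay above its array's median in 18 rats, so most of its levels are low. All rats of pilocarpine laboratory A at day 1 were among these, enough to pass the filter by themselves. The pilocarpine controls lay under the lowest array median, 27.99. The filter and the change of Calca at that time therefore draw on the same values. In pilocarpine laboratory A the lowest, median and highest Calca signals were 1.69, 6.67 and 13.8 in controls and 102, 207 and 304 at day 1, with no overlap. In laboratory B they were 2.37, 7.42 and 26.8 in controls and 2.06, 23.0 and 83.6 at day 1, where 3 of 6 rats lay above the controls and 1 below. The mean change was 1.90 ± 0.36 (adjusted p = 5.98e-05). It was 3.20 ± 0.51 in laboratory A (adjusted p = 1.75e-05) and 0.60 ± 0.51 in laboratory B (adjusted p = 0.460), and the difference of -2.60 ± 0.72 between them had an unadjusted p of 0.000805 and an adjusted p of 0.285.

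At pilocarpine day 10 Calca was high in other rats. Laboratory B gave 115, 259, 450, 3.08, 16.7 and 9.46, and its own change of 1.68 ± 0.51 was called (adjusted p = 0.0312, where 8.38% of all genes were called there and 0.753% in laboratory A), while laboratory A stayed between 1.19 and 13.2. The same 3 rats of laboratory B, rats 1 to 3, also had its highest Penk signals at day 10 (1962, 2476 and 1233) and its highest Vgf signals (338, 1360 and 555). At kainate day 1 Calca changed by 0.39 ± 0.15 (adjusted p = 0.0307), with 5 of 12 rats above their controls, and the 3 SE models differed at day 1 (F-test, adjusted p = 0.00527). This F-test, too, came from the fit of all 28 groups, so it does not carry the wider spread of Calca after pilocarpine. That kainate call was lost without any 1 of laboratory A control rat 2, laboratory A day 1 rat 2, laboratory B control rat 5 or laboratory B day 1 rat 5 (adjusted p = 0.0558 to 0.0898), and when all 28 groups were fitted together (0.188). The size of these low-signal changes depended on the added value. With 64 added to the signal they were 1.08 at pilocarpine day 1 and 0.15 at kainate day 1, and with 4 added the latter was 0.72.

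The other 2 probe sets for Calca were not called at day 1 of pilocarpine or kainate. They lay above the array's median in 1 rat and 0 rats, so neither would have passed the filter by itself. At pilocarpine day 1 their changes were -0.23 (adjusted p = 0.320) and -0.07 (adjusted p = 0.569). The calls of Calca after pilocarpine and kainate therefore rest on 1 of its 3 probe sets. At SSSE day 1 the middle probe set was called, with 0.39 ± 0.12 (adjusted p = 0.0444), while the brightest was not (0.51 ± 0.27, adjusted p = 0.217) and the dimmest gave -0.0039 ± 0.064. Why the probe sets differ was not tested.

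**Figure D3:**
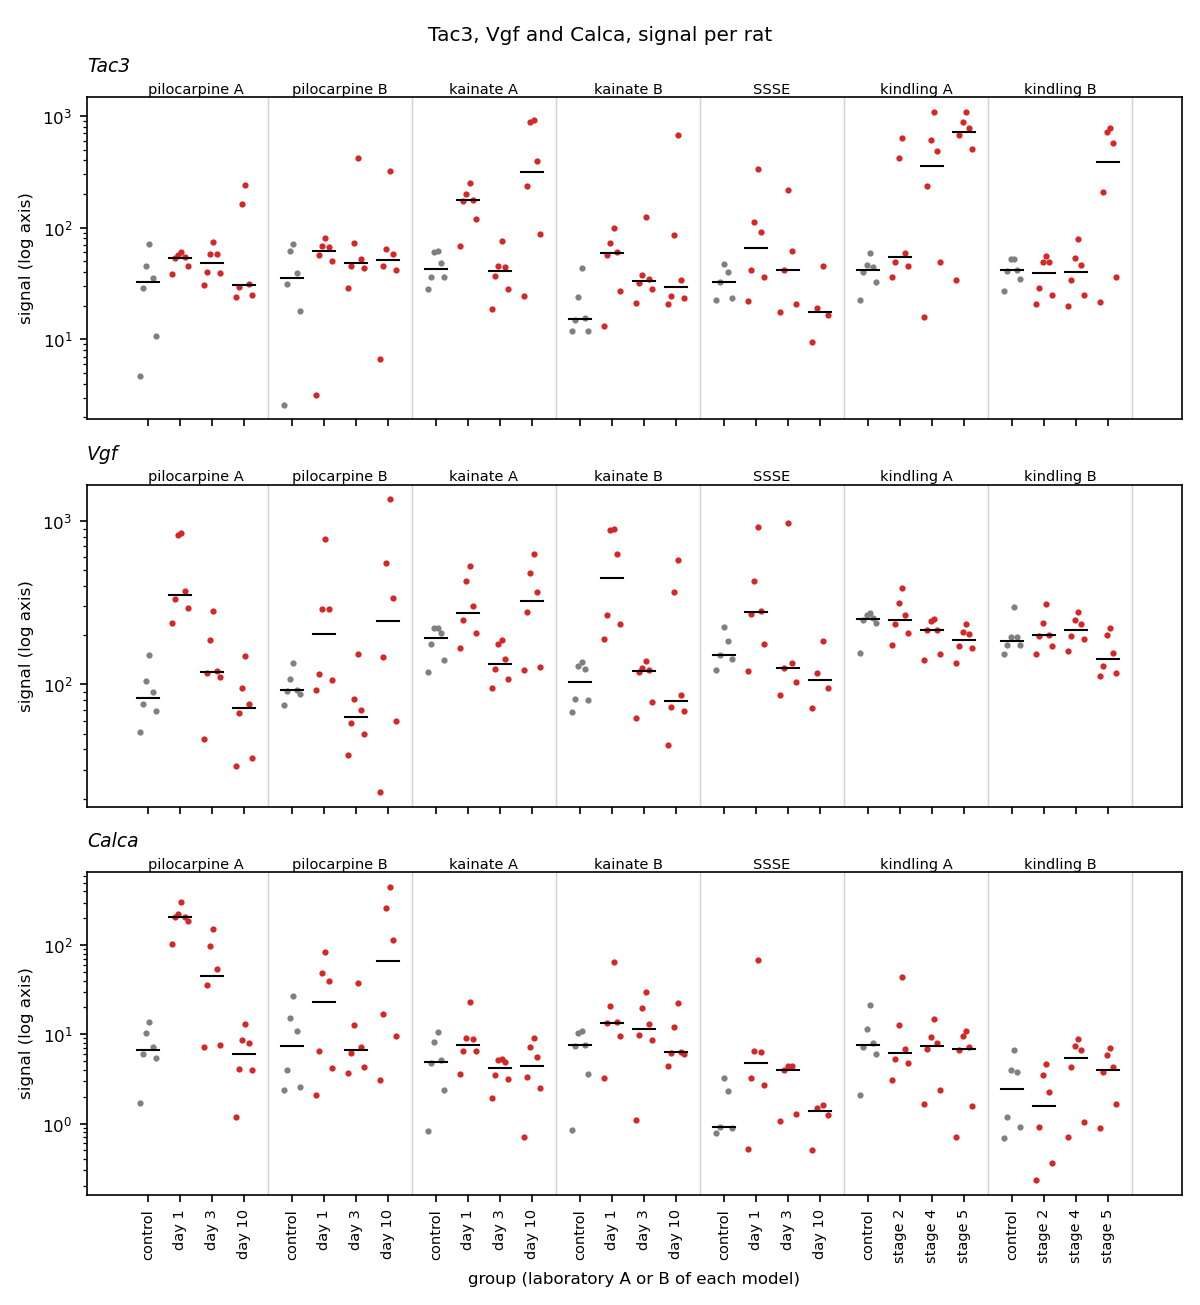
Signal of Tac3, Vgf and Calca in each rat on a log axis, by laboratory and time, with controls in grey, treated rats in red and group medians as bars. Tac3 spreads from 33.8 to 1075 among the stage 5 rats of kindling A, and Calca at pilocarpine A day 1 (102 to 304) lies above its controls (1.69 to 13.8).

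Vgf, a granin-like precursor that follows neurotrophin and activity signals in neurons, rose at day 1 of pilocarpine and kainate. In pilocarpine laboratory A the lowest, median and highest Vgf signals were 51.0, 82.8 and 152 in controls and 238, 353 and 851 at day 1. In laboratory B they were 74.7, 91.9 and 135 in controls and 92.8, 202 and 774 at day 1. The groups were apart in laboratory A and overlapped in laboratory B, and the change was 1.56 ± 0.36 (adjusted p = 0.000721), with 9 of 12 rats above their controls. In the kainate model it was the other way round: laboratory A ran from 119 to 222 in controls and from 168 to 534 at day 1, with overlap, while laboratory B ran from 67.8 to 136 and from 190 to 888, without. The kainate change was 1.30 ± 0.29 (adjusted p = 0.000295), with 10 of 12 rats above their controls.

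The rise of Vgf did not last to day 3 in the mean. At that time its changes were 0.04 ± 0.36 after pilocarpine and -0.15 ± 0.29 after kainate, and the times differed in both models (F-test, adjusted p = 0.00348 and 0.000383, where 24.5% and 35.2% of all genes were called). At pilocarpine day 10 laboratory B again held both extremes, with Vgf signals of 338, 1360, 555, 148, 60.0 and 21.8, so that 4 of 6 rats lay above and 2 below all controls. In SSSE the controls gave 143, 123, 185, 225 and 152, and day 1 gave 120, 276 and 925 as lowest, median and highest. The SSSE change of 0.81 ± 0.50 did not pass (adjusted p = 0.285). At SSSE day 3 the signals were 104, 136, 979, 126 and 85.6, where the rat at 979 was also the one with Penk at 2354, and without it the Vgf change turned from 0.11 to -0.49, neither of them called. In kindling no stage was called, and stage 5 gave -0.33 ± 0.13 (adjusted p = 0.103).

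Scg2, which encodes secretogranin II, a vesicle core protein and the source of secretoneurin, was not called in any of the 12 comparisons. Its signals lay between 689 and 3768 over all rats, far above the array medians. The largest of its 12 changes were 0.25 ± 0.15 at pilocarpine day 1 (adjusted p = 0.189), -0.23 ± 0.15 at pilocarpine day 10 (adjusted p = 0.353) and 0.22 ± 0.10 at kainate day 1 (adjusted p = 0.0555). At kainate day 1, 7 of 12 rats lay above their controls, with medians of 2146 and 2376 in laboratories A and B against 1882 and 1859. The 3 times of pilocarpine differed in Scg2 (F-test, adjusted p = 0.0294): laboratory A had a median of 2134 at day 1, 1352 at day 3 and 1077 at day 10, against 1478 in controls. Vgf and Scg2, whose promoters both hold TGACGTCA, had changes of 1.56 and 0.25 at pilocarpine day 1. The part of this element in either change was not tested. The kainate day 1 change of Scg2 passed the threshold with 64 added (adjusted p = 0.0480), quantile normalization (0.0164), arrays scaled to 1 median (0.0421), array weights (0.0114) and without the doubted rats (0.0433), at 0.22 to 0.27. Its pilocarpine day 1 change passed with all 28 groups fitted together (0.0419).

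Adcyap1, the precursor of the peptide PACAP, fell at kainate day 1. In laboratory A the lowest, median and highest Adcyap1 signals were 69.0, 108 and 137 in controls and 24.8, 45.2 and 78.0 at day 1. In laboratory B they were 48.1, 67.6 and 107 in controls and 15.9, 48.9 and 71.4 at day 1. The groups overlapped in both laboratories, 8 of 12 rats lay below their controls, and the change was -0.77 ± 0.19 (adjusted p = 0.00101), or -0.47 with 64 added to the signal. A second probe set gave -0.62 ± 0.17 (adjusted p = 0.00248). At kainate day 3 the first probe set gave -0.58 ± 0.19 (adjusted p = 0.0519), with all 6 rats of laboratory A at 38.5 to 52.0 and below their controls, and passed with the rat number as a block (adjusted p = 0.0462), and the second gave -0.53 ± 0.17 (adjusted p = 0.0375).

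By kainate day 10 Adcyap1 was back at 0.11 ± 0.19, and the 3 times differed (F-test, adjusted p = 0.000606). At kindling stage 5 the direction was opposite, with 7 of 12 rats above their controls, but the change of 0.48 ± 0.16 did not pass (adjusted p = 0.0578). This stage 5 change passed with 64 added to the signal (adjusted p = 0.0430) and with array weights (adjusted p = 0.0111). At pilocarpine day 1, 7 of 12 rats lay below their controls while 1 rat of laboratory A reached 572, against 97.9 for the highest control, and the change of -0.46 ± 0.35 did not pass (adjusted p = 0.328).

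Cck, the precursor of cholecystokinin, and Sst, the precursor of somatostatin, are known best from hippocampal interneurons, and neither was called in any of the 12 comparisons. In pilocarpine laboratory A, Cck ran from 103 to 1111 in controls (median 206), 121 to 1214 at day 1, 133 to 1663 at day 3 and 60.5 to 1038 at day 10. Each of these groups held a single rat above 1000, and the groups overlapped. In the other laboratories and models Cck stayed between 46.4 and 808. The 7 control groups differed in Cck and Sst (F-test, adjusted p = 0.00408 and 0.0104), and also in Vgf (0.0164), as did 68.9% of all genes. What else differed between the laboratories cannot be told apart from the laboratory.

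Sst lay above its array's median in 86 rats. Its largest changes were 0.68 ± 0.28 at kainate day 10 (adjusted p = 0.139) and 0.63 ± 0.24 at pilocarpine day 3 (adjusted p = 0.0786). The pilocarpine day 3 change passed with array weights (0.74, adjusted p = 0.00840) and with all 28 groups fitted together (adjusted p = 0.0432). In pilocarpine laboratory A its lowest, median and highest signals were 8.98, 24.9 and 68.7 in controls and 27.0, 81.5 and 122 at day 3, with 4 of 6 rats above the controls. In kainate laboratory A they were 12.5, 29.8 and 35.8 in controls and 33.3, 75.4 and 204 at day 10, with 5 of 6 rats above. In the second laboratory of each model the medians were 20.6 in controls and 21.8 for pilocarpine, and 57.6 in controls and 80.6 for kainate, and the groups overlapped. Of 11 tested interneuron markers, which do not include Cck or Sst, 1 fell and none rose at pilocarpine day 3, and none was called at kainate day 10. Their summed signal, in which the brightest marker, Gad1, weighs most, ran in pilocarpine laboratory A from 4322 to 8925 in controls and from 4278 to 10725 at day 3. In kainate laboratory A it ran from 3030 to 4015 in controls and from 2381 to 4404 at day 10. The part of these markers in Sst and Cck was not tested.

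Penk is also made by some interneurons. The summed signal of the interneuron markers had a median of 5071 in controls (4322 to 8925) and 6037 at day 1 (3354 to 7048) in pilocarpine laboratory A, and of 2933 (1254 to 4763) and 4065 (2479 to 6977) in laboratory B. In kainate laboratory A the medians were 3267 (3030 to 4015) and 3511 (2481 to 3781), and in laboratory B they were 4117 (2985 to 4687) and 4561 (2866 to 5846). The day 1 median was the higher in all 4 laboratories, and the ranges overlapped in each. Bright genes weigh most in this sum: the mean log2 level of Gad1 was 11.2, against 8.4 for the next marker, Cnr1. The sum therefore mostly follows Gad1 and is not a count of interneurons. At kainate day 1, 1 of the 11 interneuron markers rose and 4 fell, and at pilocarpine day 1 none rose and 1 fell. Their part in the rise of Penk was not tested.

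The laboratories of a model were compared directly. Within 1 laboratory, the members called at pilocarpine day 1 were Penk, Calca and Vgf in laboratory A (22.6% of all genes called) and Penk in laboratory B (15.1%). At kainate day 1 they were Penk, Pdyn, Tac3 and Adcyap1 in laboratory A (21.6%) and Penk, Calca and Vgf in laboratory B (32.6%). At kainate day 10 Tac3 was called in laboratory A (2.06%) and no member in laboratory B (0.892%), and at stage 5 Tac3 was called in kindling laboratory A (0.976%) and no member in laboratory B (0.344%). Within a laboratory no member was called at pilocarpine day 3 (4.72% and 3.63% of all genes in A and B) or kainate day 3 (1.47% and 4.29%). None of the 81 differences between laboratories in a change (9 members at 9 times) passed, while 7 had an unadjusted p under 0.05 in limma. Over all genes 1 of 10758 was called at kainate day 1 (0.0093%) and 0% at the other 8 times. A member called in 1 laboratory only was therefore not shown to differ between them. The change had the same sign in both laboratories at 8 of 9 times for Pdyn, 9 of 9 for Cck, 6 of 9 for Penk, Tac3 and Scg2, 5 of 9 for Vgf and Sst, 4 of 9 for Adcyap1 and 3 of 9 for Calca.

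**Figure D4:**
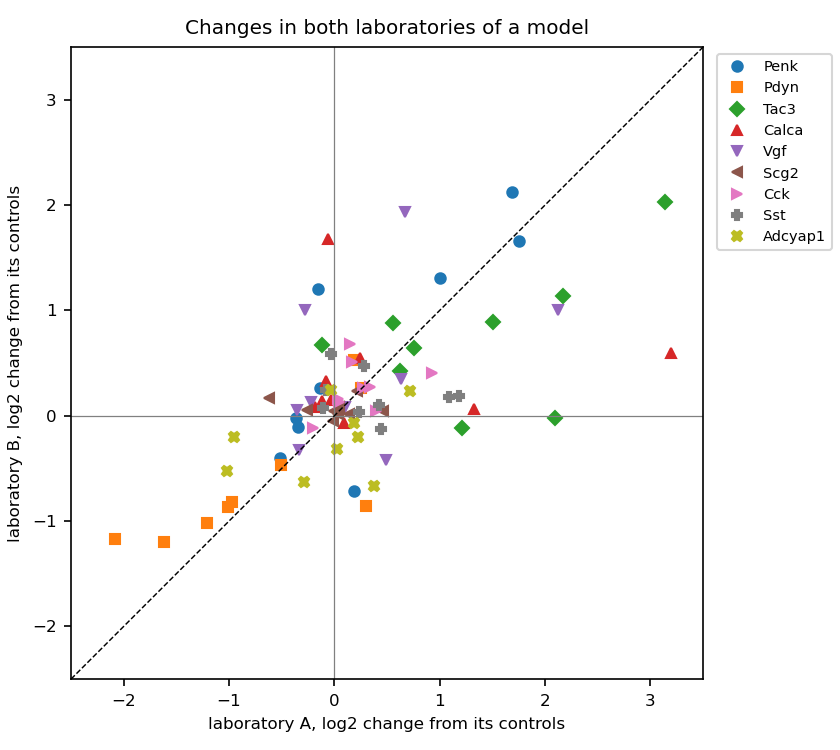
Log2 change from controls in laboratory A (horizontal axis) against laboratory B (vertical axis) of the same model, for 9 genes at 9 times each; the dashed line marks equal changes. The Calca point at 3.20 and 0.60 is pilocarpine day 1, and the Tac3 point farthest from the centre, at 3.14 and 2.03, is kindling stage 5.

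Over the times of a model, 4 of the 9 members differed after pilocarpine (Penk, Vgf, Calca and Scg2) and 4 after kainate (Penk, Vgf, Adcyap1 and Tac3), against 24.5% and 35.2% of all genes. For Penk the adjusted p of the F-test was 0.00394 and 3.06e-11, and for Calca after pilocarpine it was 0.0175. Between the SE models, tested in 1 fit of all 28 groups, the members called at day 1 were Penk and Calca (5.72% of all genes). No member was called at day 3 (0.446%) or day 10 (0.0651%), where 1 member each had an unadjusted p under 0.05 in limma. The Penk changes at day 1 were 1.90, 1.71 and -0.06 in pilocarpine, kainate and SSSE, and those of Calca were 1.90, 0.39 and 0.51. The SSSE value of Calca rests on day 1 rat 5, at a signal of 68.1 against 6.58 for the next rat, and was 0.17 without it. Pdyn, which fell in kainate and SSSE and was at -0.27 after pilocarpine, was not shown to differ between the models at day 1 (adjusted p = 0.164).

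Some receptors of the members' peptides, those of somatostatin among them, were called too. This was at times when 41.6% (kainate day 1) and 32.1% (pilocarpine day 1) of all genes were called. Of 7 opioid and tachykinin receptors on the array 2 passed the filter, and 1 of them, Oprl1, was called while the other was not. Oprl1 is the receptor of nociceptin, a peptide that none of the members encodes. Oprl1 rose at kainate day 1 by 1.53 ± 0.18 (adjusted p = 3.20e-09) and at pilocarpine day 1 by 1.22 ± 0.24 (adjusted p = 9.64e-05). It was raised at day 3 of both models as well, by 0.83 ± 0.18 and 1.12 ± 0.24. Of 8 tested receptors and receptor partners of the other peptides, 2 rose and 4 fell at kainate day 1, and 2 rose and 3 fell at pilocarpine day 1. Sstr2, a somatostatin receptor, fell by 1.70 ± 0.15 on the log2 scale at kainate day 1 (adjusted p = 8.97e-13), while Sstr3, another, rose by 1.14 ± 0.15 (adjusted p = 1.34e-08). Ramp1, the partner that turns the calcitonin receptor-like receptor into a CGRP receptor, rose by 1.62 ± 0.26 (adjusted p = 2.40e-06). At pilocarpine day 1 the changes of Sstr2, Sstr3 and Ramp1 were called as well, at -1.31 ± 0.22, 1.08 ± 0.22 and 0.98 ± 0.19. At kainate day 10 the direction of Sstr3 was opposite, with a change of -0.59 ± 0.15 (adjusted p = 0.00737). Neither list had a call at any time in SSSE or at stages 2 and 4.

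Of 19 tested enzymes and partners that make and break peptides, 6 rose and 4 fell at kainate day 1, where 22.2% of all genes rose and 19.4% fell. At pilocarpine day 1, 5 rose and 4 fell, where 15.8% of all genes rose and 16.3% fell. Pcsk2, a convertase that cuts prodynorphin and proenkephalin, rose by 0.85 ± 0.16 at kainate day 1 (adjusted p = 2.20e-05), and also at SSSE day 1 (0.65 ± 0.18) and stage 5 (0.56 ± 0.11). It was called higher at pilocarpine day 1 (0.57 ± 0.16) and kainate day 10 (0.52 ± 0.16) as well. Mme, the enkephalin-degrading enzyme neprilysin, fell by 0.84 ± 0.18 on the log2 scale at pilocarpine day 1 (adjusted p = 0.000262). Its changes were also called at kainate day 1 (-0.83 ± 0.11), kainate day 3 (-0.60 ± 0.11) and SSSE day 1 (-0.60 ± 0.18). Ece2, which degrades several peptides, fell by 0.63 ± 0.17 at pilocarpine day 1 (adjusted p = 0.00314). At kainate day 1 its change was -0.56 ± 0.12 (adjusted p = 0.000106).

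Among 16 tested genes of dense-core vesicles, 3 rose and 7 fell at kainate day 1 and 4 rose and 4 fell at pilocarpine day 1, against the same shares of all genes. Ptprn, a vesicle membrane protein, rose by 1.85 ± 0.15 at pilocarpine day 1 (adjusted p = 1.71e-12), and Chga, chromogranin A, by 1.33 ± 0.18 at kainate day 1 (adjusted p = 5.64e-08). These rises were shared by other models. Among other times, Ptprn was called higher at kainate day 1 (1.70 ± 0.11), SSSE day 1 (0.86 ± 0.13) and stage 5 (0.47 ± 0.10), and Chga at pilocarpine day 1 (0.97 ± 0.21). Cadps2, which primes vesicles for release, fell by 1.55 ± 0.15 on the log2 scale at kainate day 1 (adjusted p = 1.84e-11). At pilocarpine day 3 Cadps2 rose, by 0.70 ± 0.24 (adjusted p = 0.0487). Chga also rose in SSSE at day 1, by 1.03 ± 0.27, a time at which of the members only Pdyn was called, in the opposite direction.

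Among other neuropeptide precursors, Trh and Npy had the highest changes. Of 15 tested, 5 rose and 2 fell at kainate day 1, 4 rose and 2 fell at pilocarpine day 1, and 3 rose and 1 fell at SSSE day 1, where 41.6%, 32.1% and 12.5% of all genes were called. The median change of the 15 was 0.03 at kainate day 1 and 0.30 at pilocarpine day 1, against 0.22 and 0.41 for the 9 members. Trh, which encodes the precursor of thyrotropin-releasing hormone, had risen by 4.94 ± 0.35 at kainate day 1 (adjusted p = 1.91e-15), and Npy, neuropeptide Y, by 3.21 ± 0.35 (adjusted p = 3.56e-10). Both were called higher at pilocarpine day 1 too, by 4.25 ± 0.46 and 2.56 ± 0.47, and at SSSE day 1, by 4.34 ± 0.70 and 2.85 ± 0.76. Cartpt rose at kainate day 10, by 1.76 ± 0.39 (adjusted p = 0.00297), the time at which Tac3 rose a second time. At pilocarpine day 3 Cartpt fell, with a change of -1.07 ± 0.35 (adjusted p = 0.0349).

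The 21 changes of each gene (laboratory by time) were also compared across genes, as a description over points that share controls within a laboratory. Penk and Vgf correlated at 0.69, Calca and Vgf at 0.75 and Calca and Penk at 0.58 (Pearson, 21 changes). Adcyap1 ran against Penk (-0.56) and with Tac3 (0.54). Among rats of the same group, after group means were taken off, Calca and Vgf correlated at 0.48 and Penk and Vgf at 0.47 over 164 rats, and Cck and Sst at 0.53. Tac3 and Adcyap1 correlated at 0.33 there, and Pdyn and Tac3 at -0.25. Values of 1 rat share the same array.

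For each member the 2 genes with the most similar 21 changes are given next, by Pearson's correlation. Penk was most like Tpm4, a tropomyosin (0.947), and Cryab, a small heat shock protein (0.929). For Vgf these were Dnajb11, a chaperone of the endoplasmic reticulum (0.933), and Pitpna (0.922), for Calca Tfpi2 (0.918) and Smarca5 (0.915), and for Scg2 Sqstm1 (0.880) and Pex13 (0.873). Closeness was lower for the other members. Cck was nearest to Cyp4f6 (0.815) and Tcerg1l (0.814), Tac3 to Bsg (0.783) and Mvd (0.716), and Pdyn to Pip5k1b (0.780) and Robo3 (0.762). Adcyap1 was nearest to Stard4 (0.780) and Thrsp (0.774), and Sst to Gna12 (0.681) and Fam181b (0.674). Provisional symbols and members were passed over in this choice.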

How the data were processed

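Laser-cut granule cell RNA was hybridised to one-colour Affymetrix arrays. Per the submitters' processing notes, the authors made the deposited values, a linear intensity for each probe set, with MAS5, version not given. Tested on the values, each array had the same 2% trimmed mean of 150.04 to 150.06. Of 31099 probe sets, 57 were controls, 20826 carried a single gene symbol, 436 several and 9780 none. Those with 1 symbol that lay above their array's median in 6 or more rats were kept (14277), the brightest per gene, which gave 10758 genes. The 8 rats with 2 arrays entered as the mean of both. Arrays of a repeat correlated at 0.946 to 0.996. For some of these rats an array of another rat of the group correlated better. This was so for kainate laboratory A day 3 rat 5 (0.981 against 0.988) and pilocarpine laboratory A control rat 5 (0.946 against 0.958), among others. Each model was fitted with limma 3.58.1 (R 4.3.3, and data.table version 1.17.8) on log2(signal + 16), 1 mean per group. The F-tests between the SE models and between the control groups came from 1 fit of all 28 groups. The fit by model was tested on simulated data. Figures used matplotlib 3.10.9 in Python 3.11.15.

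Named genes are the 10 members, per pathway list up to 3 genes with the largest called change, and per member the 2 genes with the highest correlation, with provisional symbols passed over. The members and lists were chosen with earlier results of these data known. Alternatives were an added value of 4 or 64, other scalings, no filter, all 28 groups fitted together, the rat number as a block, the first array only, array weights, other probe sets and leaving out rats. Standard errors and p-values measure the spread between rats of a group, and the number of rats limits the precision. They do not cover the spread between the laboratories of a model.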

Additional observations from a re-analysis of the deposited data

Results flagged for a closer look

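Of 280 groups of a member gene, 21 held a rat whose signal stood far apart from the rest of its group; about 1 in 20 groups does so by chance. Among tested genes such high rats were seen for Vgf at SSSE day 3 (rat 4, 979, next 136), Tac3 at kainate laboratory B day 10 (rat 2, 669, next 86.6), Tac3 at pilocarpine laboratory B day 3 (rat 2, 422) and Sst at pilocarpine laboratory B day 1 (rat 2, 244). Tac3 was also set apart at kainate laboratory B day 3 (rat 2, 125), at kindling laboratory A stage 5 (rat 1, lowest, 33.8, next 502) and at pilocarpine laboratory B day 1 (rat 2, lowest, 3.19). Calca stood apart at SSSE day 1 (rat 5, 68.1), at kainate laboratory A day 1 (rat 2, 22.9) and at stage 2 of kindling laboratory A (rat 1, 44.0). For Vgf the controls of kindling held 2 such rats, 1 at 156 in laboratory A (lowest) and 1 at 298 in laboratory B. Pdyn had 1 low rat at kindling laboratory A stage 4 (rat 4, 340), and Sst 1 high rat at SSSE day 1 (rat 6, 50.4).

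For Tac1, which is near the floor of the array, the rats standing apart had signals of 13.9 (kainate laboratory B day 1), 16.3 and 4.75 (kindling laboratory B control and stage 5), 17.5 and 14.8 (pilocarpine laboratory A day 1 and day 10), 38.6 (pilocarpine laboratory B day 1) and 33.7 (SSSE day 3, rat 4). This last rat was the same as the one with the high Vgf signal, and its array correlated less well with its group.

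Changes that differed between the times of a model, by the F-test in limma, were those of Penk (adjusted p = 0.00394), Vgf (0.00348), Calca (0.0175) and Scg2 (0.0294) after pilocarpine, and of Penk (3.06e-11), Vgf (0.000383), Adcyap1 (0.000606) and Tac3 (0.0106) after kainate. Pdyn differed between the times of SSSE (0.0442) and the stages of kindling (0.0270). Between the SE models at day 1 the changes of Calca (0.00527) and Penk (0.0140) differed.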

How the results depend on the processing

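The counts of called members at pilocarpine day 1, kainate day 1 and day 10, SSSE day 10 and stages 2 and 4 stayed within 1.5 times under each alternative run. At SSSE day 1 the count was 0 after scaling arrays to 1 median, when the 28 groups were fitted as 1 and without the 2 rats of contradicting labels, and at SSSE day 3 it was 0 with all 28 groups together. At kainate day 3 it was 2 with 64 added, with median scaling and with array weights, and 1 with quantile normalization, all 28 groups together, the first array only, the rat number as replicate block and without the 6 doubted rats. Stage 5 gave 2 with 64 added and 3 with array weights. Pilocarpine day 3 gave 4 with all 28 groups together and 3 with array weights, and day 10 gave 1 with all 28 groups together. Without 1 rat at a time the count ran from 0 to 1 at SSSE day 1, 0 to 2 at kainate day 3, 1 to 4 at stage 5, 0 to 1 at pilocarpine day 10 and 1 to 2 at pilocarpine day 3. Of 48 such fits, 16 called Pdyn and 14 called Adcyap1 at kainate day 3, 9 called Scg2 at kainate day 1, and 8 called Adcyap1 and 7 called Pdyn at stage 5.

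The replicate block moved 1 of 108 member changes across the threshold (Adcyap1 at kainate day 3, -0.58, adjusted p = 0.0462). The numbers were not taken as pairs in the main fit. After group means were taken off, the 240 pairs of the same number correlated at -0.463 to 0.654 (median 0.0676). For 50 of 164 rats the best match in another group of the laboratory had the same number, a hint from the data only. The number expected by chance was not computed, so these values do not decide whether rats of the same number belong together. On the dimmer probe sets, Calca was -0.23 and -0.072 at pilocarpine day 1, -0.21 and -0.12 at day 3 and -0.39 and -0.13 at day 10, and on the dimmest also -0.042 and -0.022 at kainate days 1 and 3 and -0.0039 at SSSE day 1, where the other dim probe set gave 0.39 (adjusted p = 0.0444). Vgf at SSSE day 3 was -0.49 without rat 4, which is also the 1 doubted SSSE rat, and ran from -0.49 to 0.34 without 1 rat at a time. Where no cause is given, the cause was not tested. Signals near or under the array medians of 27.99 to 54.2 limit Calca, Sst, Tac1 and, in controls, Tac3.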
